A study of Mus musculus with 8 samples.

Results

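The chronic stage of a mouse model of epilepsy was compared with its control: hippocampus taken 6 weeks after status epilepticus (SE), a prolonged seizure, against hippocampus of the timepoint labelled Zero. The series holds 8 samples of C57BL/6 mice in 4 groups (timepoint Zero and 12 h, 10 d and 6 weeks after SE), with 2 libraries per group and the cDNA of 2 animals pooled in each library. The comparison uses the 2 libraries of timepoint Zero, called control here, and the 2 libraries of 6 weeks, 4 of the 8 samples. Both hippocampi were taken from each animal, so every value is an average over hippocampal subfields and cell types. The agent that induced SE, any sham treatment of controls, the age and sex of the animals and whether they had spontaneous seizures were not stated in the sources used here. For mRNA, 15798 of the 20258 gene symbols in the authors' deposited table had a fold at 6 weeks. For small RNA, 422 of 1251 mature miRNAs had enough tags to be tested.

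After SE, the hippocampus of rodents is known to pass through a phase without seizures before recurrent seizures begin. Nerve cells of the hilus and of the pyramidal layers are lost, astrocytes and microglia become reactive, and granule cells of the dentate gyrus sprout new axons. Mature miRNAs pair with messenger RNAs mainly through the seed, bases 2 to 8 from the 5′ end, and reduce their translation and stability. In bulk tissue, fewer cells of a type and less RNA per cell cannot be told apart.

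Of the 422 miRNAs, 27 (6.40%) were called higher and 17 (4.03%) were called lower at 6 weeks (edgeR quasi-likelihood test, Benjamini-Hochberg adjusted p under 0.05), and 116 had an unadjusted p under 0.05. Scaling by library totals gave 53 higher and 10 lower, and upper-quartile factors gave 25 higher and 26 lower, so the split between directions depends on the scaling. The 7 largest rises were those of miR-211, miR-155, miR-455, miR-10a, miR-135b, miR-146a and miR-142, of which miR-146a, miR-155 and miR-142 are known from immune cells and reactive glia. The rises also included miR-21a and, with smaller changes, all 4 mature arms of the activity-regulated miR-132 and miR-212 cluster. The falls included miR-7a, miR-7b, both arms of miR-148a, both arms of miR-488, miR-218 and miR-3059. Mature sequences are shown for the miRNAs on which the results turn, with relatives of the same seed, because several called miRNAs have a relative, not called, that differs from them by 1 or 2 bases. They are RefSeq entries (GRCm38.p6), 5′ to 3′, with the seed in capitals.
miR-146a-5p: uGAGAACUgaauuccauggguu
miR-146b-5p: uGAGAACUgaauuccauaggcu
miR-10a-5p: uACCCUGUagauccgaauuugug
miR-10b-5p: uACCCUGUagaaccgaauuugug
miR-211-5p: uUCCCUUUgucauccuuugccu
miR-204-5p: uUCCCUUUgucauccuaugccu
miR-27a-3p: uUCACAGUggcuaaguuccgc
miR-27b-3p: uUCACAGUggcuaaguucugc
miR-148a-3p: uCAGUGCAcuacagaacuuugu
miR-148b-3p: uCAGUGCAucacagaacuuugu
miR-132-3p: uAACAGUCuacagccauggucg
miR-212-3p: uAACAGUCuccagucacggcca
miR-221-3p: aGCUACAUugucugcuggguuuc
miR-222-3p: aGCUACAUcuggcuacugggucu
miR-7a-5p: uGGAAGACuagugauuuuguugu
miR-7b-5p: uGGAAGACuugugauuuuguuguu
miR-155-5p: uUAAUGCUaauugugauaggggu
miR-21a-5p: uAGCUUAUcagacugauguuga
miR-218-5p: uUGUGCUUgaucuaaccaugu

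The small RNA libraries held 1106436 and 1649297 miRNA tags in the controls and 1482602 and 1870259 tags at 6 weeks, and 38 of the 44 called miRNAs had a RefSeq mature sequence. miR-127-3p took 16.5% to 20.5% of the tags and miR-9-5p 1.59% to 2.12% across the 8 libraries, while the liver miRNA miR-122-5p had 0 to 15 tags and the muscle miRNA miR-206-3p 0 or 1 tag. Levels are CPM, tag counts relative to library size, scaled by TMM (trimmed mean of M values) factors; small RNA libraries 7 and 8 are controls, and 5 and 6 are from 6 weeks, given in that order. All 422 miRNAs include 115 (27.3%) with both libraries at 6 weeks above both controls and 119 (28.2%) with both below, so separate groups alone do not single out a miRNA.

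miR-146a-5p, which targets adaptor proteins of Toll-like and interleukin-1 receptor signalling, stood at 2337 and 3030 CPM in the controls and at 10187 and 12892 CPM at 6 weeks. Both libraries at 6 weeks lay far above both controls, a log2 fold change of 2.10 ± 0.16 (standard error of the fit, 2 against 2 libraries; edgeR adjusted p = 4.41e-05). miR-155-5p, made from an RNA that rises in activated immune cells, had 1 and 6 tags in the controls and 55 and 73 tags at 6 weeks, or 0.971 and 3.98 CPM against 35.7 and 37.98 CPM. Its log2 fold change was 3.71 ± 0.48 (edgeR adjusted p = 0.00111), with 1 control library under the 3 tags taken as the limit of detection. miR-142-5p, found mainly in blood-derived cells and microglia, rose from 302 and 352 CPM to 1079 and 1339 CPM, a log2 fold change of 1.88 ± 0.14 (edgeR adjusted p = 4.41e-05). miR-21a-5p, which is induced in reactive astrocytes, rose from 621 and 806 CPM to 2058 and 1712 CPM (log2 fold change 1.40 ± 0.16, edgeR adjusted p = 0.000555). For these 4 miRNAs the groups did not overlap, and each call was kept under every alternative setting and without each library in turn.

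Of the 23 miRNAs tested from a list for inflammation and glia, 10 were called higher and 0 lower, with a median log2 fold change of 0.64 against -0.04 over all miRNAs tested. The shares over all miRNAs tested were 6.40% higher and 4.03% lower. The list was chosen with earlier results of these data known, and it was not tested against these shares. The 10 are the 4 miRNAs above, miR-203-3p, miR-221-3p and miR-222-3p, and miR-23a-3p, miR-27a-3p and miR-24-2-5p, 3 miRNAs of 1 cluster on chromosome 8 (mm9 chr8:86732462-86732759, plus strand). miR-23a-3p rose from 498 and 536 CPM to 870 and 1005 CPM (log2 fold change 0.86 ± 0.14, edgeR adjusted p = 0.00270). miR-221-3p and miR-222-3p, neighbours on the X chromosome that share a seed and restrain the cell-cycle inhibitor p27, rose by 0.72 ± 0.14 and 0.64 ± 0.15 on the log2 scale (edgeR adjusted p = 0.00983 and 0.0230). Both calls were lost without control library 8 and without library 5, and that of miR-222-3p also without library 6. The call of miR-27a-3p was lost without control library 7 and without library 5, and that of miR-24-2-5p without any 1 of the 4 libraries. Of 5 miRNAs listed for blood cells, 0 were called, and the red blood cell miRNA miR-451a had 73 and 98 tags in the controls and 93 and 126 tags at 6 weeks. This list leaves out miR-142-5p and miR-155-5p, which were counted in the list for inflammation and glia.

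miR-211-5p showed the largest rise. It had 6 and 9 tags in the controls and 97 and 247 tags at 6 weeks, or 5.83 and 5.97 CPM against 63.0 and 128.5 CPM (log2 fold change 4.01 ± 0.55, edgeR adjusted p = 0.00142). Its position (mm9 chr7:71350717-71350738, plus strand) lies in an intron of Trpm1, a cation channel gene of pigment cells and retinal bipolar cells, whose own mean fold in the authors' deposited table was -3.74 with a mean q of 0.694. miR-10a-5p rose from 212 and 356 CPM to 1221 and 1472 CPM (log2 fold change 2.24 ± 0.27, edgeR adjusted p = 0.000771). It lies within the Hox B gene cluster (mm9 chr11:96178500-96178522, plus strand), inside an exon that GENCODE vM1 assigns to Hoxb4, a gene with no fold at 6 weeks in the authors' deposited table. miR-455-3p, in an intron of the collagen gene Col27a1, rose from 10.7 and 7.97 CPM to 64.3 and 39.0 CPM (log2 fold change 2.48 ± 0.35, edgeR adjusted p = 0.00153). Among the 12 largest rises were also miR-135b-5p (2.15), miR-1981-5p (1.44), miR-5100 (1.41) and miR-350-3p (1.23), all at 66.3 CPM or less in every library of the 2 groups. Each of these 4 lost its call without library 5, miR-5100 also without library 6 or control library 7 and miR-350-3p without any 1 of the 4 libraries, and both of the latter with DESeq2.

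**Figure D1:**
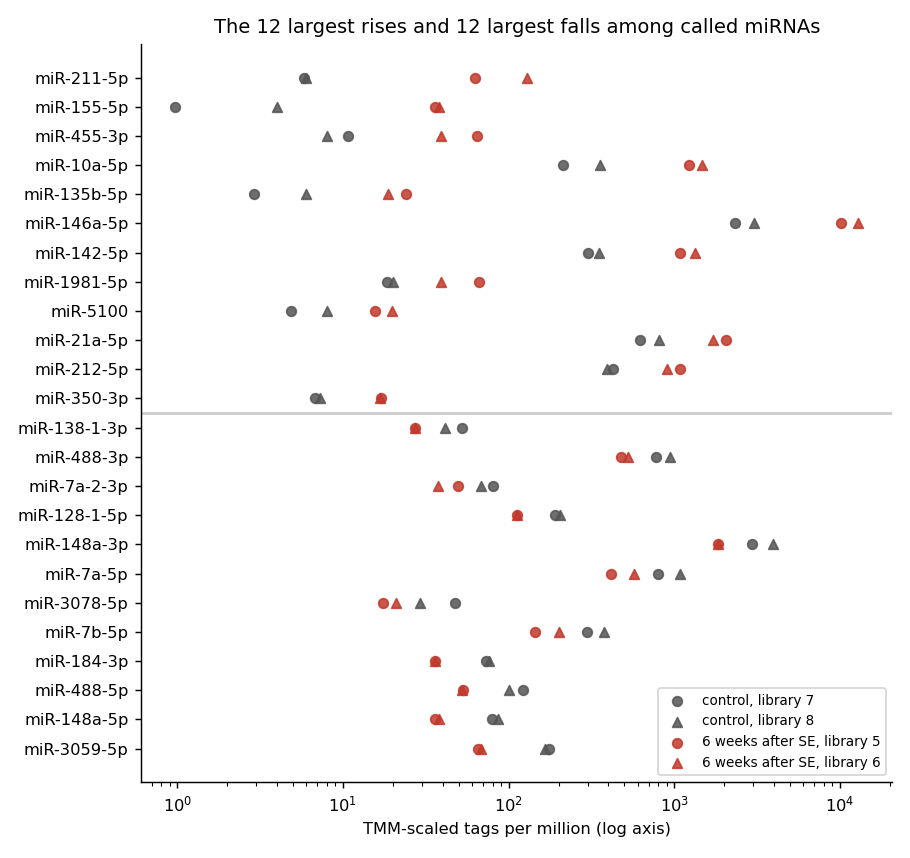
CPM (TMM-scaled, log axis) of the 12 largest rises and the 12 largest falls among called miRNAs, 1 point per library; grey, control; red, 6 weeks after SE; circles and triangles mark the 2 libraries of a group. The rises span levels from about 1 CPM (miR-155-5p, 0.971 CPM in 1 control) to 12892 CPM (miR-146a-5p at 6 weeks), and the falls lie between 17.5 and 3922 CPM.

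miR-132 and miR-212 are transcribed together and are known targets of the transcription factor CREB after neuronal activity. Their 4 mature arms lie together on chromosome 11 (mm9 chr11:74986905-74987246, plus strand), in an intron of the lincRNA 1700016P03Rik. miR-132-3p rose from 1763 and 1695 CPM to 3404 and 2912 CPM, and miR-212-5p rose from 428 and 390 CPM to 1080 and 903 CPM. The log2 fold changes were 0.87 ± 0.12 for miR-132-3p, 1.14 ± 0.20 for miR-132-5p, 0.99 ± 0.14 for miR-212-3p and 1.28 ± 0.14 for miR-212-5p (edgeR adjusted p = 0.00142, 0.00531, 0.00148 and 0.000555). The ratio of miR-132-3p tags to miR-212-3p tags was 5.04 and 4.59 in the controls and 4.32 and 4.53 at 6 weeks. miR-132-5p alone among the 4 lost its call without 1 of the libraries, library 5.

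In a list of 43 miRNAs for neuronal activity and synapse, 8 were called higher and 3 lower, and the median log2 fold change was -0.11. Over all miRNAs tested, 6.40% were called higher and 4.03% lower. The 8 are the 4 arms of miR-132 and miR-212, miR-211-5p, miR-135b-5p, miR-22-3p and miR-129-5p. miR-22-3p, one of the most abundant, rose from 18232 and 16388 CPM to 27108 and 26266 CPM (log2 fold change 0.62 ± 0.11, edgeR adjusted p = 0.00531); the call was lost without library 5. miR-124-3p, the most neuron-restricted of the list, stood at 5106 and 6524 CPM in the controls and at 4254 and 4299 CPM at 6 weeks, a log2 difference of -0.44 ± 0.13 that just missed the threshold (edgeR adjusted p = 0.0533) and passed it with upper-quartile factors, with DESeq2 and without control library 7. miR-134-5p, miR-9-5p and miR-128-3p had log2 differences of 0.37, -0.02 and -0.21 and were not called, nor was miR-34a-5p at 0.59 (edgeR adjusted p = 0.235, 0.911, 0.336 and 0.0943). The oligodendrocyte miRNA miR-219-2-3p had a log2 difference of 0.20 (edgeR adjusted p = 0.358).

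The falls were smaller than the rises. The largest was that of miR-3059-5p, from 175 and 167 CPM to 65.6 and 67.6 CPM (log2 fold change -1.35 ± 0.17, edgeR adjusted p = 0.000887). It lies in an intron of Mgat4c, a glycosyltransferase gene called lower in the authors' deposited table with a mean fold of -20.6. Both arms of miR-488 fell, miR-488-3p from 777 and 938 CPM to 475 and 526 CPM (log2 fold change -0.78 ± 0.13, edgeR adjusted p = 0.00520). They lie in an intron of Astn1, which encodes a protein of neuronal migration and was called lower in the authors' deposited table with a mean fold of -2.24. miR-7a-5p, which is made from more than 1 locus, fell from 799 and 1089 CPM to 417 and 572 CPM (log2 fold change -0.93 ± 0.19, edgeR adjusted p = 0.0106). Its relative miR-7b-5p fell by 0.96 ± 0.20 on the log2 scale (edgeR adjusted p = 0.0103), and both calls were lost without control library 8 and without library 5. miR-184-3p, whose call was kept only without control library 7 among the 4 libraries, fell by 1.06 on the log2 scale and miR-128-1-5p fell by 0.81 (edgeR adjusted p = 0.0104 and 0.00671), the latter in an intron of R3hdm1, which was not called.

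miR-218-5p, which targets Robo receptors and glutamate transporter mRNA, is made from introns of both Slit2 and Slit3, the genes of 2 axon guidance ligands. It fell from 2716 and 2997 CPM to 1795 and 1777 CPM (log2 fold change -0.68 ± 0.11, edgeR adjusted p = 0.00270). The other arms of the 2 hairpins differ in sequence and separate the loci. miR-218-1-3p, from Slit2, had 13 and 16 tags in the controls and 5 and 11 tags at 6 weeks, while miR-218-2-3p, from Slit3, had 6 and 6 tags and then 12 and 12 tags. Neither arm was called (log2 difference -1.30 ± 0.43 and 0.54 ± 0.48, edgeR adjusted p = 0.0830 and 0.498), and at this depth the difference between them rests on few tags. In the authors' deposited table Slit2 was called lower with a mean fold of -19.3, and Slit3 was not called with a mean fold of -0.215.

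Relatives with the same seed did not always move together. miR-146a-5p and miR-146b-5p differ at 2 of 22 bases outside the seed, and miR-146b-5p, the more abundant in the controls, was not called (log2 difference 0.06 ± 0.15). The ratio of miR-146a-5p to miR-146b-5p tags needs no scaling between libraries: it was 0.276 and 0.281 in the controls and 1.13 and 1.17 at 6 weeks. For miR-211-5p and miR-204-5p, which differ at 1 of 22 bases, miR-204-5p stood at 7500.5 and 9132 CPM in the controls and was not called, and the ratio was 0.000777 and 0.000654 in the controls and 0.0119 and 0.0147 at 6 weeks. For miR-27a-3p and miR-27b-3p, with 1 of 21 bases different, the ratio was 0.00949 and 0.0101 and then 0.0213 and 0.0203. The ratio of miR-10a-5p to miR-10b-5p, with 1 of 23 bases different, was 3.57 and 1.34 in the controls and 7.17 and 8.68 at 6 weeks, so the 2 controls themselves differed. In each of these 4 pairs both libraries at 6 weeks lay above both controls, and an exact permutation test of 2 against 2 libraries cannot give a two-sided p below 0.333. In each pair 1 member was called higher and the other was not, from these same libraries. The ratios are therefore no separate evidence for the calls. How the authors assigned tags that match 2 near-identical miRNAs was not stated in the sources used here.

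miR-148a-3p fell from 2926 and 3922 CPM to 1843 and 1843 CPM (log2 fold change -0.89 ± 0.16, edgeR adjusted p = 0.00520), and its other arm miR-148a-5p fell by 1.17 ± 0.17 on the log2 scale. miR-148b-3p and miR-152-3p, which have the same seed, had log2 differences of -0.20 and 0.20 and were not called. By contrast, the ratio of miR-221-3p to miR-222-3p was 1.21 and 1.27 in the controls and 1.35 and 1.26 at 6 weeks, and that of miR-7a-5p to miR-7b-5p was 2.71 and 2.88 and then 2.90 and 2.84. Of 117 hairpins with both arms tested, 21 had a called arm, where miR-218-5p and miR-7a-5p each count for 2 hairpins. Both arms were called in 5 hairpins, in 1 direction each.

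**Figure D2:**
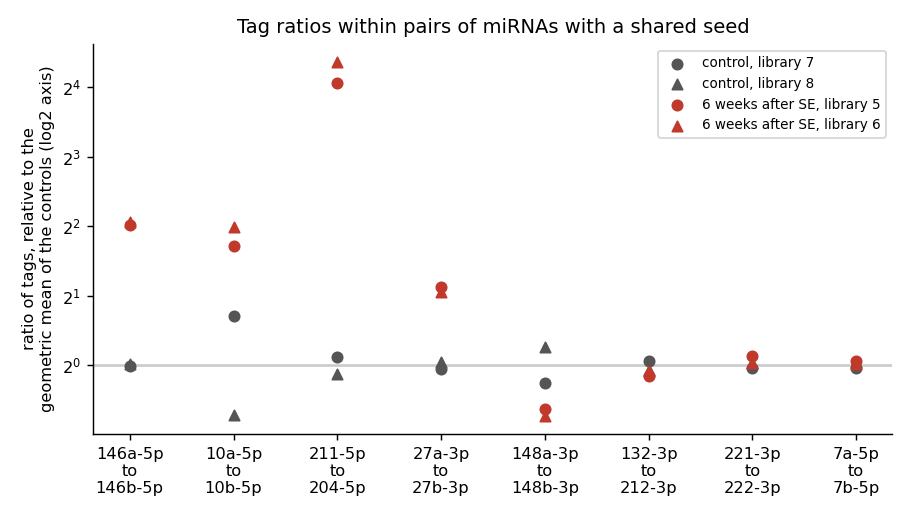
Ratio of tags between 2 miRNAs with the same seed in each library, divided by the geometric mean of the 2 control ratios (log2 axis); grey, control; red, 6 weeks after SE. The first 4 pairs lie above their controls at 6 weeks, miR-148a-3p to miR-148b-3p lies below, and the last 3 pairs stay near 1.

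The called miRNAs were set against the earlier groups. These contrasts use the same 2 libraries of 6 weeks as the calls, in the same fit. Overlap with the called miRNAs, 44 of the 422 tested, is therefore no separate evidence for them. Against 10 d, 7 miRNAs differed, all 7 of them among the called miRNAs (edgeR adjusted p under 0.05): miR-132-3p, miR-212-5p, miR-211-5p, miR-221-3p, miR-222-3p, miR-431-5p and miR-3059-5p. Against 12 h, 92 differed, of which 33 were called at 6 weeks. miR-211-5p stood at 6.999 and 6.93 CPM at 10 d and at 0 and 6.24 CPM at 12 h, near the controls. miR-212-5p stood at 417 and 461 CPM at 10 d, near the controls. miR-146a-5p was already at 8789 and 10129 CPM at 10 d and did not differ between 10 d and 6 weeks beyond the threshold (log2 difference 0.29, edgeR adjusted p = 0.412).

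**Figure D3:**
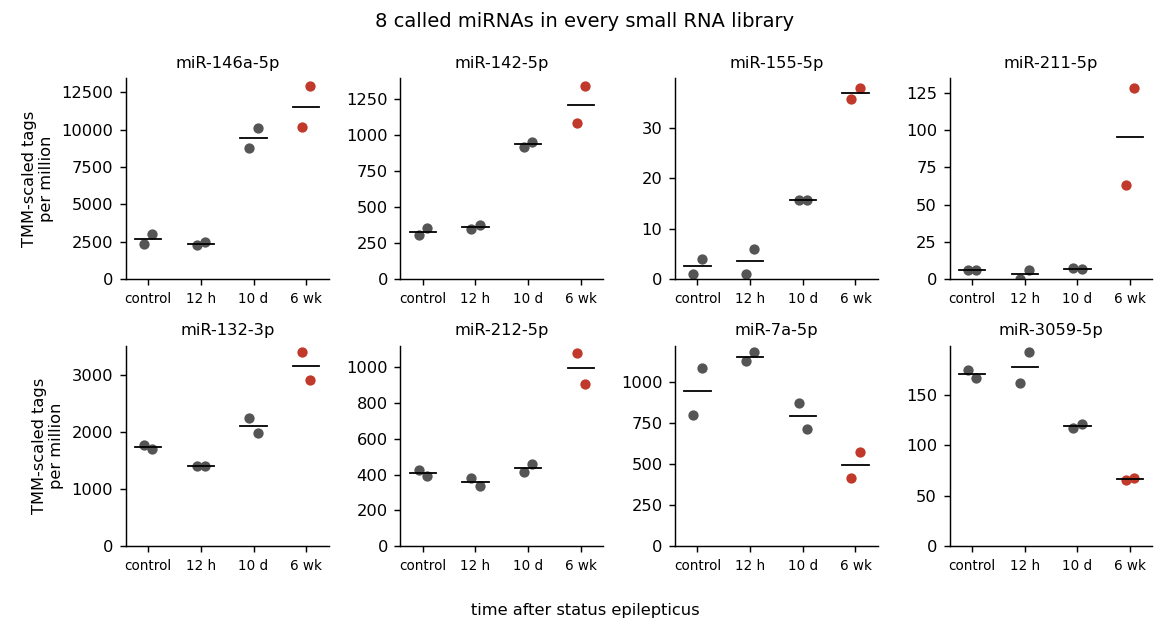
CPM (TMM-scaled) of 8 called miRNAs in every small RNA library, 2 points per group with the mean as a line; red, 6 weeks after SE. miR-146a-5p, miR-142-5p and miR-155-5p are above the controls at 10 d and at 6 weeks, miR-211-5p and miR-212-5p are near the controls at 10 d and far above them at 6 weeks, and miR-7a-5p and miR-3059-5p are lowest at 6 weeks.

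For mRNA, the authors' deposited table holds averaged signed folds with averaged q-values for each transcript; depth and spread between libraries are unknown, and a q compares these libraries. A gene was called where the q was under 0.05 and the fold had a size of 1 or more. Of the 15798 genes with a fold in the authors' deposited table, 1521 (9.63%) were called higher and 1892 (12.0%) lower, while 590 (3.73%) had a mean q this low but a mean fold smaller than 1, a size that no single signed fold can have. The median mean fold was 5.93 among genes called higher and -6.34 among genes called lower in the authors' deposited table. Folds of at least 20 in size made up 21.2% and 29.8% of these calls. By size of the mean fold in the authors' deposited table, the 6 top rises were Pggt1b (269), Spag6 (221), Naip2 (190), Gpnmb (179), Aasdh (151) and BC067068 (141), and the 6 top falls were Begain (-316), Esrrg (-293), Atxn7l2 (-292), Kcnip2 (-269), Cpne4 (-263) and Itga8 (-252). Gpnmb marks lipid-laden phagocytes, Naip2 senses bacterial proteins in macrophages, Begain belongs to the postsynaptic density, and Kcnip2 is a subunit of A-type potassium channels.

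Direction went with transcript length. Genes were put in 5 equal classes by their longest protein-coding transcript in GENCODE vM1, which 97.4% of the genes with a fold had. In the shortest class (median 1233 bases) 3.35% were called higher and 11.2% lower, and in the longest class (median 6268 bases) 18.6% were called higher and 9.29% lower. Among called genes, the share higher rose class by class, from 23.0% through 32.9%, 37.7% and 48.1% to 66.7%. The part that length plays in the results on gene groups was not tested, and median lengths are given beside most of the groups that follow. Counts in each group are to be read beside the shares over all genes with a fold, 9.63% higher and 12.0% lower. No group was tested against these shares.

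**Figure D4:**
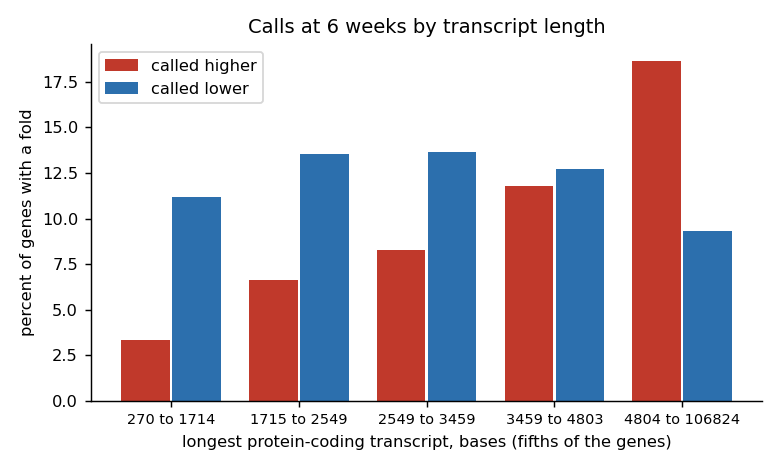
Percent of genes with a fold called higher (red) and lower (blue) at 6 weeks in the authors' deposited table, in 5 equal classes of genes by length of the longest protein-coding transcript. The share called higher climbs from 3.35% in the shortest class to 18.6% in the longest, while the share called lower stays between 9.29% and 13.6%.

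Astrocyte genes rose more often than they fell. Of 21 reactive astrocyte genes with a fold (median length 2852 bases), 4 were called higher and 1 lower in the authors' deposited table. The other 16 were not called. The 4 called higher are named next, and the 1 called lower is not among the genes named by rule. The filament gene Gfap had a mean fold of 10.5, Vim, another filament gene, 6.09, the acute-phase inhibitor Serpina3n 17.1 and the transcription factor Stat3 15.7. Of 16 homeostatic astrocyte genes (median length 4169 bases), 8 were called higher and 2 lower. The water channel Aqp4 had a mean fold of 5.62, the potassium channel Kcnj10 1.88 and the glutamate transporter Slc1a2 1.53 in the authors' deposited table, each with a mean q of 9.82e-16. The 2 called lower were Aldoc (-2.78) and Ndrg2 (-1.46), named after their values were seen.

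Microglia genes moved in both directions, and complement and cytokine genes rose more often than they fell. Of 16 homeostatic microglia genes (median length 2319.5 bases), 4 were called higher and 2 lower in the authors' deposited table; the fractalkine receptor Cx3cr1 had a mean fold of 7.04, Siglech 10.4 and the colony-stimulating factor receptor Csf1r 2.66. The selectin ligand gene Selplg (-21.2), named after its value was seen, was among those called lower. Of 19 phagocyte activation genes (median length 2128 bases), 3 were called higher and 3 lower, beside 9.63% and 12.0% over all genes. Gpnmb (179), Laptm5 (7.64) and Apoe (2.35) rose, Ctsz (-14.1) and Cd53 (-2.69), named after their values were seen, were among those that fell, and the lysosomal protein Cd68 had a mean fold of 113 and was not called (mean q = 0.304). Among 22 complement and MHC genes (median length 1935 bases), 4 were called higher and 0 lower in the authors' deposited table, including complement C4b (63.1) and the C3a receptor C3ar1 (108). Of 23 cytokine and chemokine signalling genes (median length 2838 bases), 8 were called higher and 2 lower, among them the TNF receptor Tnfrsf1a (76.2), the shared receptor subunit Il6st (7.16) and Tgfb2 (2.90). Of 17 endothelial and blood-brain barrier genes (median length 4052 bases), 4 were called higher and 1 lower: Esam (103) and the pericyte receptor Pdgfrb (51.6) rose, and the VEGF receptor Kdr (-26.9) fell in the authors' deposited table. Of 9 blood cell genes with a fold, only the leukocyte gene Ptprc was called (9.74, mean q = 0.0350), and of 9 choroid plexus genes 0 were called, with Ttr at 57.7 (mean q = 0.0529).

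Of 18 myelin and oligodendrocyte genes (median length 3174.5 bases), 2 were called higher and 2 lower, near the shares over all genes (9.63% and 12.0%), and 3 had a mean fold under 1 in size, Mbp among them. In the authors' deposited table, the lineage factor Olig1 had a mean fold of -19.1, while its neighbour Olig2, named after its value was seen, had 6.67.

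Genes that make, take up and counterbalance GABA fell. Of 10 genes for GABA synthesis, uptake and chloride transport (median length 4464 bases), 7 were called lower and 0 higher in the authors' deposited table, with a median signed log2 fold of -1.35 against 0 over all genes with a fold. The GABA-synthesising enzymes Gad1 and Gad2 had mean folds of -2.82 and -2.26, the breakdown enzyme Abat -3.79 and the astrocytic transporter Slc6a11 -12.1 in the authors' deposited table. Slc12a5, the neuronal chloride extruder that keeps GABA inhibitory, had a mean fold of -4.23 (mean q = 9.82e-16). Of 14 GABA receptor subunits (median length 4405.5 bases), 4 were called higher and 3 lower: Gabra2 (3.43) and Gabrb1 (4.23) rose, and the extrasynaptic subunit Gabrd (-52.0) and the GABA-B subunit Gabbr2 (-4.97) fell in the authors' deposited table. Gabra4 and Gabra5 had mean folds of -1.43 and -0.778 and were not called in either direction.

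Among 19 interneuron markers with a fold (median length 2082 bases), 5 were called lower and 2 higher. The peptide genes Sst and Npy, expressed by hilar interneurons, had mean folds of -81.9 and -7.95 in the authors' deposited table. Pvalb, the marker of fast-spiking interneurons, was called higher at 5.31 (mean q = 0.0142), and Reln stood at 0.167. Bdnf, the neurotrophin induced by seizures, rose with a mean fold of 10.9, and its 4 transcripts with a fold lay between 10.8 and 11.1. Of 26 neuropeptide and neurotrophin genes (median length 1665.5 bases), 4 were called higher and 5 lower in the authors' deposited table; Penk (11.2) rose and the granule protein gene Chgb (-4.25) fell.

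Sst, Chgb and Aasdh are shown with their promoters because they were the 3 genes named by rule in which the cAMP response element, TGACGTCA, bound by CREB, was found; Sst and Chgb fell and Aasdh rose. The promoters run from 250 bases before the annotated start to 50 bases into the gene (RefSeq, GRCm38.p6). They are given on the strand of the gene, with the element in capitals. Sst lies at chr16:23890795-23891094, minus strand, with the element beginning 48 bases before the start, and Chgb at chr2:132781392-132781691, plus strand, with the element 72 bases before it. Aasdh lies at chr5:76905427-76905726, minus strand, with the element 47 bases before the start.
Sst: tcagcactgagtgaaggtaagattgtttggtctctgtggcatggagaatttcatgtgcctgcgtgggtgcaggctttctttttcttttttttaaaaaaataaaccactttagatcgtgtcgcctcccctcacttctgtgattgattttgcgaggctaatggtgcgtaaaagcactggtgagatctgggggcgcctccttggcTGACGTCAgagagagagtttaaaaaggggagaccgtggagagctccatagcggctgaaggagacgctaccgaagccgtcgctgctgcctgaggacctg
Chgb: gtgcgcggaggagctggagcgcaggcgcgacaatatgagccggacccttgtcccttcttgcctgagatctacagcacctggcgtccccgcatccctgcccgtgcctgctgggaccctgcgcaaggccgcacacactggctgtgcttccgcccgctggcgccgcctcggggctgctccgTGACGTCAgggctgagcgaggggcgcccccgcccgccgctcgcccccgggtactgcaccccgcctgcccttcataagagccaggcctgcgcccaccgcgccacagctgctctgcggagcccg
Aasdh: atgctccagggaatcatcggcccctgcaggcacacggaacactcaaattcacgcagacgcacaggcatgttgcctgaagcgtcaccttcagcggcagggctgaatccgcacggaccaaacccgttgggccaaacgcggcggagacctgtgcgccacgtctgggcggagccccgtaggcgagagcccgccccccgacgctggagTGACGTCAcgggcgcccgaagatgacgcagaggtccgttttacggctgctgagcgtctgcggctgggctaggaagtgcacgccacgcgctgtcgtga
These exact 8 letters, which read the same on both strands, occurred in 3.17% of 11007 promoters of genes with a fold, in 2.70% of 1113 called higher and in 3.82% of 1336 called lower. A region with a CREB height in the authors' deposited table was listed for 35.4% of all genes with a fold, 33.1% of those higher and 37.3% of those lower. Of 23 genes listed for the CREB family and epilepsy-linked regulators (median length 5401 bases), 4 were called higher and 3 lower. Another 15 were called in neither direction, and the shares over all genes were 9.63% higher and 12.0% lower. In the authors' deposited table Creb1 (1.96) and its coactivators Crebbp (3.75) and Crtc2 (2.70) rose. Atf4 (-6.58) fell, and Crem (6.12, mean q = 0.364) was not called. Rest, a repressor of another family, had -0.795 and was not called.

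Genes of transmitter release fell more often than they rose. Of 22 synaptic vesicle genes (median length 3946 bases), 10 were called lower and 2 higher in the authors' deposited table. Among the falls were the vesicle proteins Syp (-9.50) and Syn2 (-3.67), the release clamp Cplx1 (-3.29) and the vesicular glutamate transporter Slc17a7 (-2.65). Of 13 AMPA and kainate receptor genes (median length 5192 bases), 4 were called lower and 0 higher: the subunit Gria3 (-3.13) and the auxiliary protein Cnih2 (-3.62) fell, and Gria2 (0.913) was not called in the authors' deposited table. Of 12 NMDA and metabotropic receptor genes (median length 4678.5 bases), 3 were called higher and 2 lower, with Grin2a at 1.57, Grin2b at 1.05 and Grm3 at -1.81. Of 22 postsynaptic genes (median length 5689 bases), 4 were called lower and 2 higher in the authors' deposited table: the calcium kinases Camk2a (-1.52) and Camk2b (-2.09) fell and Homer1 (12.7) rose. For Homer1 the value is that of the short transcript NM_011982, while the long transcripts NM_147176 and NM_152134 had mean folds of 5.68 and 5.45 and were not called (mean q = 0.0690 and 0.203).

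Ion channel genes were called in both directions, beside 9.63% higher and 12.0% lower over all genes. In each list that follows, 5 of 26 genes had a mean q under 0.05 but a mean fold under 1 in size. Over all genes with a fold, the share of such genes was 3.73%. Of 26 potassium channel genes (median length 4330.5 bases), 5 were called lower and 3 higher in the authors' deposited table: the A-type subunit genes Kcnip2 (-269) and Kcnip3 (6.33) went opposite ways, and their pore partner Kcnd2 (0.0984) had a mean fold under 1. Of 26 sodium, calcium and HCN channel genes (median length 7524.5 bases), 5 were called lower and 4 higher. The T-type calcium channels Cacna1g (3.99) and Cacna1h (-178) also went opposite ways, and the sodium channel subunit Scn3b (-4.12) fell in the authors' deposited table.

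Of 15 pyramidal neuron markers (median length 2939 bases), 4 were called lower, 1 higher and 9 in neither direction in the authors' deposited table. The transcription factor Neurod6 (-4.54) and the CA1 gene Fibcd1 (-5.75) were among those called lower. The 1 called higher is not among the genes named by rule. Of 12 dentate granule markers (median length 4171 bases), 1 was called in each direction, no more than the shares over all genes (9.63% and 12.0%): C1ql3 (1.87) was called higher and C1ql2 (-153) lower, and Prox1 (0.260) and Calb1 (-1.51) were not called. Of 16 neurogenesis genes (median length 2796.5 bases), 5 were called higher and 3 lower in the authors' deposited table: Sox11 (3.69), Dpysl3 (10.5) and Dcx (1.40) rose, and Neurod1 (-49.8) fell. Of 25 axon growth and guidance genes (median length 5874 bases), 7 were called lower and 4 higher, with Stmn2 at -4.46, Nrp1 at 2.42 and Epha7 at 2.68. Of 12 markers of striatum and thalamus, 1 was called higher (Penk) and 2 lower, including Ppp1r1b (-51.6).

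Energy metabolism genes fell more often than they rose. Of 28 respiratory chain genes, 15 were called lower and 1 higher in the authors' deposited table, with a median signed log2 fold of -1.24. The ATP synthase subunits Atp5a1 (-2.16) and Atp5b (-2.28) and the succinate dehydrogenase subunit Sdha (-2.21) fell with similar mean folds. These genes are short (median length 1110.5 bases); of all genes in the shortest class 11.2% were called lower. The list for cytosolic ribosomal proteins is shorter still (median length 878 bases) and had 2 called lower and 1 higher of 23. Of 23 genes of glycolysis and the TCA cycle (median length 2221 bases), 10 were called lower and 2 higher in the authors' deposited table, among them Pkm2 (-4.24), Gpi1 (-2.88) and Aldoa (-2.81). Of 25 proteasome genes (median length 1316 bases), 7 were called lower and 1 higher, and of 20 chaperone genes (median 2566.5 bases) 6 lower and 2 higher, with Psmc4 at -11.5, Hsph1 at -2.64 and Hsp90b1 at -3.01.

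Clock genes moved in both directions. Of 16 circadian clock genes (median length 4532 bases), 3 were called higher and 6 lower in the authors' deposited table. Clock (12.6), which encodes an activator of the loop, rose, as did its partner Arntl (72.9), named after its value was seen. Dbp (-16.8), an output gene that this pair activates, and the repressor Cry2 (-3.18) fell in the authors' deposited table. The hour at which hippocampi were taken was not stated in the sources used here. Of 21 mTOR pathway genes (median length 5879.5 bases), 6 were called higher and 3 lower, with Tsc2 (1.70) called higher and Mlst8 (-74.5) called lower. Of 25 immediate early genes (median length 2796 bases), 4 were called higher and 3 lower, not far from the 9.63% and 12.0% over all genes. In the authors' deposited table Fosl2 (7.99) rose, Dusp6 (-3.50) fell and Arc had 0.592. Fos had a mean fold of 172 that was not called (mean q = 0.412).

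Of 18 miRNA processing genes (median length 6662 bases), 3 were called higher and 4 lower in the authors' deposited table: the Argonaute gene Eif2c3 (18.9) rose, and both parts of the microprocessor, Rnasen (-3.45), known as Drosha, and Dgcr8 (-17.7), fell. Other lists gave 4 higher and 4 lower of 27 for extracellular matrix, where the perineuronal net component Acan (35.9) and Timp3 (8.44) rose. The list for adenosine and purines gave 1 and 2 of 12, where Adora1 (-1.55) fell and Entpd1 (37.6) rose. In the authors' deposited table there were 0 and 2 of 16 for cholesterol synthesis, and 1 and 1 of 18 for the cell cycle. Over all genes with a fold the shares were 9.63% higher and 12.0% lower, and no list was tested against them. Of 4 sex-linked genes with a fold, the Y-linked Ddx3y (4.59) and Eif2s3y (3.92) were called higher; their mean folds at 12 h were -65.8 and -65.9. The part that a difference in the sex of the pooled animals plays in any result was not tested.

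**Figure D5:**
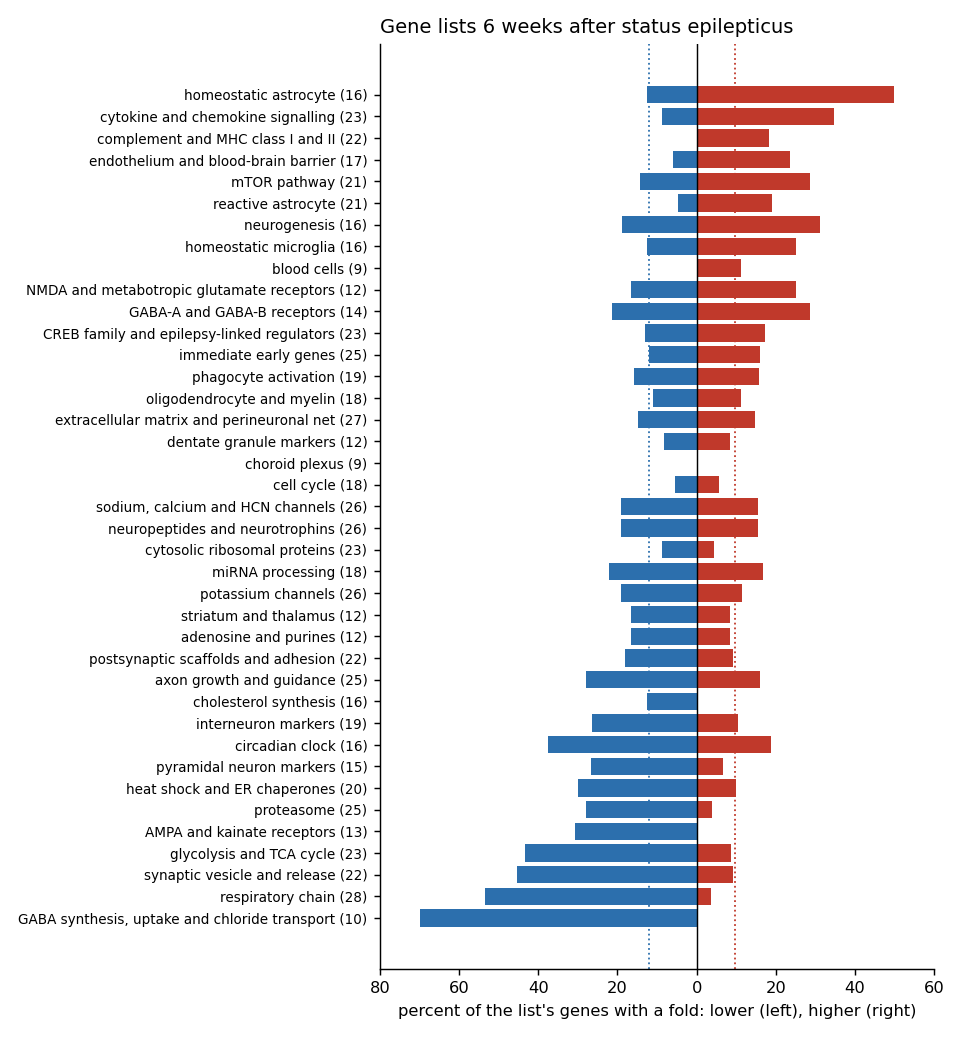
Percent of the genes with a fold in each list that were called higher (red, right) or lower (blue, left) at 6 weeks in the authors' deposited table, with the number of genes with a fold in brackets; dotted lines mark the shares over all genes, 9.63% higher and 12.0% lower. Homeostatic astrocyte genes lead the rises (8 of 16) and genes for GABA synthesis, uptake and chloride transport lead the falls (7 of 10).

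Values at the earlier times are given side by side for genes named at 6 weeks, since all 3 comparisons share the control libraries. In the authors' deposited table Gfap had mean folds of 2.83 at 12 h, 8.47 at 10 d (mean q = 0.194) and 10.5 at 6 weeks, Stat3 8.16, 10.5 and 15.7, and Serpina3n 1.42, 7.53 and 17.1. Slc12a5 had 1.27 and -0.841 before -4.23, neither earlier value called (mean q = 0.0721 and 0.247), and Atp5a1 had 0.709 and -0.0516 before -2.16. Sst had 2.19, -7.90 and -81.9, and Npy had 1.62, -3.74 and -7.95 in the authors' deposited table, with neither value at 12 h called (mean q = 0.191 and 0.256). Homer1 had 14.5, -2.10 and 12.7, and Clock 7.21, 0.447 and 12.6, with neither value at 10 d called (mean q = 0.537 and 0.317). Atf4 had 2.25 and 2.13 before -6.58, with a mean q under 0.05 at each time.

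Transcripts of 1 gene mostly moved together. By the authors' deposited values, 637 genes had at least 2 called transcripts, of which 625 had all of them in 1 direction and 12 had transcripts called both ways. The 12, listed after their values were seen, were Brwd1, Cdk12, Cux1, Dclk1, Dnmt3a, Fam65b, Med1, Mrpl1, Pdpk1, Sfrs13a, Tom1l2 and Tor1aip2. Since the authors counted reads in exons, transcripts that share exons share reads.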

How the data were processed

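Polyadenylated RNA was selected, per the labels' protocols. Reads were mapped to mm9 with Bowtie, per the submitters' processing notes, and unique reads in RefSeq exons were counted, per the series' design text. The deposited values are a mean signed fold, treated as a score, and a mean q-value per transcript and comparison; the authors' test was not stated in the sources used here. CREB region heights are deposited as a score of unstated scale and were used as present or absent. The deposited small RNA values are tag counts per mature miRNA; the small RNA library protocol was not stated in the sources used here. The 24 other columns of the small RNA libraries were not used. The labels' replicate letters match no small RNA library number.

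For mRNA, 1 row per gene symbol (the first) was used. The signed log2 is the log2 of the fold's size with its sign, set to 0 under 1. miRNA counts were fitted in R 4.3.3 with edgeR 4.0.16 (TMM factors, filterByExpr, quasi-likelihood test), all 8 libraries and 4 groups in 1 model, tested on simulated data; DESeq2 1.42.0 was an alternative. The design text calls the pooled libraries of a group independent replicates; whether this holds for the small RNA libraries was not stated, so the p-values describe differences among these libraries alone.

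The comparison, gene lists and miRNA lists were chosen with earlier results of these data known. Genes were named by rule: the 6 top rises and falls among calls, in each list the 2 called members lowest in q (or 3, if at least 5 were called), and a fixed set of epilepsy-related genes; 741 of 744 listed genes were found, 12 under older symbols. Named miRNAs are the 12 largest rises and 12 largest falls among called miRNAs whose groups do not overlap, and a fixed set of families; other miRNAs (relatives, arms, neighbours) were named after their values were seen. Positions are mm9, from matching RefSeq sequences; annotation is GENCODE vM1. Some listed genes are not reported here by name.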

Additional observations from a re-analysis of the deposited data

Results flagged for a closer look

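The effect at 6 weeks differed from that at an earlier time for 20 miRNAs named by the rule. This was tested as the contrast between the 2 times in the edgeR fit (adjusted p under 0.05). Only miRNAs already called at 6 weeks were considered, and the contrasts use the same 2 libraries of 6 weeks. They are therefore no separate evidence for the calls. Against 10 d, the log2 difference was 3.77 for miR-211-5p, 1.18 for miR-212-5p, 0.58 for miR-132-3p and -0.84 for miR-3059-5p, with adjusted p of 0.00849, 0.00433, 0.0434 and 0.0434. Against 12 h, the rises that were larger at 6 weeks were miR-211-5p by 4.38, miR-155-5p by 2.96, miR-10a-5p by 2.64, miR-455-3p by 2.56, miR-146a-5p by 2.28, miR-142-5p by 1.75, miR-212-5p by 1.47, miR-135b-5p by 1.33, miR-132-3p by 1.17, miR-5100 by 0.97, miR-21a-5p by 0.93 and miR-132-5p by 0.83 on the log2 scale. The falls relative to 12 h were -1.42 for miR-3059-5p, -1.31 for miR-148a-3p, -1.22 for miR-7a-5p, -1.15 for miR-7b-5p, -1.10 for miR-488-3p, -0.69 for miR-184-3p, -0.68 for miR-488-5p and -0.66 for miR-148a-5p. The adjusted p against 12 h lay between 4.35e-05 (miR-146a-5p) and 0.0448 (miR-184-3p).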

How the results depend on the processing

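Counts of called genes moved by more than 1.5 times only at a mean q under 0.001, with 821 higher and 1044 lower; the other 6 mRNA alternatives stayed within that range, as did the 3 for all list members together (107 higher and 142 lower as reported). For miRNAs, library totals gave 53 higher and 10 lower, upper-quartile factors gave 26 lower, and no filter gave 44 higher. The median log2 over all miRNAs was -0.04 as reported, -0.16 with upper-quartile factors and 0.12 with library totals, so small changes are relative to that shift. Without each library in turn, 12 to 25 were higher and 8 to 14 lower, the fewest without library 5 of 6 weeks (12 and 8, of which 19 were among the 44), with 9 lower without library 6 and 10 without control library 8. Of 44 called miRNAs, 18 were called the same way under all 11 alternatives, 31 under those that keep all libraries, and 0 changed sign. No paired analysis was possible because the small RNA columns carry library numbers that match no replicate letter, and the mRNA values are comparisons. The causes were not tested.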

Other observations

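Textbook targets of called miRNAs, chosen after the miRNA results were seen, did not move in 1 direction. In the authors' deposited table, Pdcd4, a target of miR-21a-5p, was called lower with a mean fold of -2.71 (mean q = 4.90e-08), and Cdkn1b, which encodes p27 and is targeted by miR-221 and miR-222, was called lower with -45.8. Irak1 (1.76) and Map3k7 (10.9), targets of miR-146a-5p and miR-10a-5p, were called higher while these miRNAs rose, and Traf6 (-1.31) was not called. Slc1a2 was called higher with 1.53 while miR-218-5p fell, and Arhgap32 (2.14), a target of miR-132, was called higher while miR-132-3p rose. In 18 further pairs of a miRNA and a target, the target was called in neither direction in the authors' deposited table.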
